A study of Mus musculus with 4 samples.

Results

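The regions described here are 6751 ATF4 pull-down peaks in mouse heart ventricle that lie between genes at a middle distance. Each has its midpoint outside every protein-coding gene model and 5 kb to under 50 kb from the nearest gene end on chromosomes 1 to 19. They make up 16.2% of the 41639 peaks in the series-wide list and 16.6% of the 40722 on those chromosomes. The rule used only position, so width, strength, replicate support and the identity of the neighbouring genes were free to vary.

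The study had 2 pull-down samples and 2 input samples of ventricle from mice aged 4 weeks, and the input values were not analysed here. Ventricle was crosslinked with formaldehyde and sheared, and the chromatin was captured on streptavidin beads. The antibody field of the labels reads AAV, which they do not explain, and they give no genotype, strain, sex or further treatment. They number the pull-down samples bio1 and bio2 (replicates 1 and 2 below) without saying that they came from separate animals, so the spread between them may be technical. The labels also do not say how ATF4 was made to bind streptavidin or in which cell types of the ventricle it was present.

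ATF4 is a basic leucine zipper transcription factor whose translation rises when eIF2 alpha is phosphorylated, the core event of the integrated stress response. It pairs with other leucine zipper proteins, many of the C/EBP family, and activates genes for amino acid uptake and synthesis, tRNA charging, protein folding and redox balance. Its composite C/EBP-ATF site has the core TGATGNAA, and the cyclic AMP response element TGACGTCA is the palindrome of the wider ATF/CREB family. Much of the chromatin bound by transcription factors in the heart lies away from promoters, in enhancers whose target need not be the closest gene.

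Reference sequence was at hand for those regions that reach the start of a gene, from 250 bases before to 50 bases after it (RefSeq, GRCm38.p6). Of 31396 such start windows of coding and noncoding genes on chromosomes 1 to 19, 248 windows of 209 genes were overlapped by 205 of the peaks, and 0 of these were protein-coding genes. TGATGNAA or its reverse complement TTNCATCA stood in 6 of the 248 windows (2.42%), beside 1201 of all windows (3.83%). TGACGTCA stood in 3 of the 248 (1.21%), beside 574 of all (1.83%). All windows include those of coding genes and the 248 do not, and no share of noncoding windows alone was counted. In these counts a match could lie anywhere in a window, also outside the peak. A match is a description of letters in the window, and absence says only that these letters are not there. The windows below are examples from the 248, and a peak of the set covers at least part of each. The choice was not made over all 248, so a peak of higher fold may cover a window not shown. The first belongs to a peak of high fold, the second to a wide peak near Klf9, and the other 4 hold a motif, in capitals. Only the stretch under the peak is printed, which shortens Snhg15 to 276 bases and Gm33801 to 260. Base positions below count from the first printed base. Each is written 5′ to 3′ on the strand of its gene, and the palindrome reads alike on either strand.
5430401H09Rik: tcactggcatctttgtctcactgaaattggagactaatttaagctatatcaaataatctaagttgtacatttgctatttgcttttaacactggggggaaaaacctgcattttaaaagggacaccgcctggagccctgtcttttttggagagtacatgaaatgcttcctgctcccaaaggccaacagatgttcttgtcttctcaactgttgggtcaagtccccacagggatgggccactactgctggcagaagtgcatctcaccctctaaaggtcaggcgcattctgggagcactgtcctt
2410080I02Rik: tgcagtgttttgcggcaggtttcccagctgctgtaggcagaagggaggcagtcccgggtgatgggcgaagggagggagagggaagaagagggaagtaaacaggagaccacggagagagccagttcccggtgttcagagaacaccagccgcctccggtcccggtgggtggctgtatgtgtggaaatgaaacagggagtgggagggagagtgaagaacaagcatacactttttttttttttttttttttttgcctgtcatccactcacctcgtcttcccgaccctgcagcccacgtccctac
Gm38424: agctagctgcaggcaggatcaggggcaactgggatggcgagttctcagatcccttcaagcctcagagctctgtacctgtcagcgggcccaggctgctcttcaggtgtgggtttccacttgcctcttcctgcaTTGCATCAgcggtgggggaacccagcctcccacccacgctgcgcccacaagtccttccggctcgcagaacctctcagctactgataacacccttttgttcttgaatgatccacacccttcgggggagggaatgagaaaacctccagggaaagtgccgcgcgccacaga
Snhg15: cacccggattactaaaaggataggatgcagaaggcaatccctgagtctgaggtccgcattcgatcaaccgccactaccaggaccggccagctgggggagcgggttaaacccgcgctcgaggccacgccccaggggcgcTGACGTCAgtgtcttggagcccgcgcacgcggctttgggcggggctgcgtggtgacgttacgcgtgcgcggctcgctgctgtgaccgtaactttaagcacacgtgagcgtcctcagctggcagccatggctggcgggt
Gm33801: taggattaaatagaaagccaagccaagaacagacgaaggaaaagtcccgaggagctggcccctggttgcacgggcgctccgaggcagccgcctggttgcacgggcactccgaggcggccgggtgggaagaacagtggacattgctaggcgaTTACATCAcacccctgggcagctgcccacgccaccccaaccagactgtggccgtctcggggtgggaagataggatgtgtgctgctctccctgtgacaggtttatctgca
4930471M09Rik: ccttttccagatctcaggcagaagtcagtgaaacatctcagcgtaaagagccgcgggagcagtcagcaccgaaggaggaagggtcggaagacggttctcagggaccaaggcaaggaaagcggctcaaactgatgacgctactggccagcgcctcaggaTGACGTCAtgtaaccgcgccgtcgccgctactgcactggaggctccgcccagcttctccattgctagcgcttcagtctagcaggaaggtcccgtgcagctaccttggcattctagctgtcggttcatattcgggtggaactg

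The window of the noncoding gene 5430401H09Rik (chr12:32123774-32124073, minus strand) lay under a peak 49.8 kb from Pik3cg, a phosphoinositide 3-kinase subunit. That peak was 39.0-fold in replicate 1 and 51.0-fold in replicate 2, and neither motif was found in the window. The window of 2410080I02Rik (chr19:23134248-23134547, plus strand) lay under a peak 3868 bp wide, 5.43 kb upstream of Klf9, a zinc finger factor of the glucocorticoid response, with folds of 34.5 and 37.7. Gm38424 (chr5:31596693-31596992, plus strand) carried TTGCATCA at bases 133 to 140 of its window, under a peak of 20.0-fold and 26.2-fold near Mrpl33, a mitochondrial ribosomal protein gene. Gm33801 (chr17:25539645-25539904, minus strand) carried TTACATCA at bases 152 to 159, near Sox8. Snhg15 (chr11:6528711-6528986, minus strand), a small nucleolar RNA host gene, carried TGACGTCA at bases 139 to 146, under a peak of 17.0-fold and 23.5-fold whose nearest protein-coding gene was Myo1g. The window of 4930471M09Rik (chr6:91440805-91441104, minus strand) carried TGACGTCA at bases 159 to 166, near Chchd4, a mitochondrial import factor. Replicate 2 had the higher fold in the 4 peaks whose folds are given here.

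Fold is the authors' enrichment of a peak in the series-wide list. In all 6597 of these peaks that were found in both replicates it equalled the larger of the replicate folds (within 1%). Replicate folds were themselves read from series-wide folds of identical peaks, so equality with one of them is set by construction for such peaks. For this reason replicate values are given wherever a peak is named. The 6751 peaks were 128 to 13093 bp wide, with a median of 415 bp and quartiles of 284 and 614 bp. Their width resembled that of the 19361 peaks inside genes, with a median of 424 bp. Peaks within 1 kb of a gene end were wider, with a median of 618 bp over 6714, and the 3933 peaks more than 100 kb from genes were narrower, at 382 bp. A width of 1000 bp or more was reached by 480 of the intergenic 5 to 50 kb peaks (7.11%). Beside this stood 6.60% of the peaks inside genes, 17.0% of those at gene ends and 8.23% of all.

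**Figure D1:**
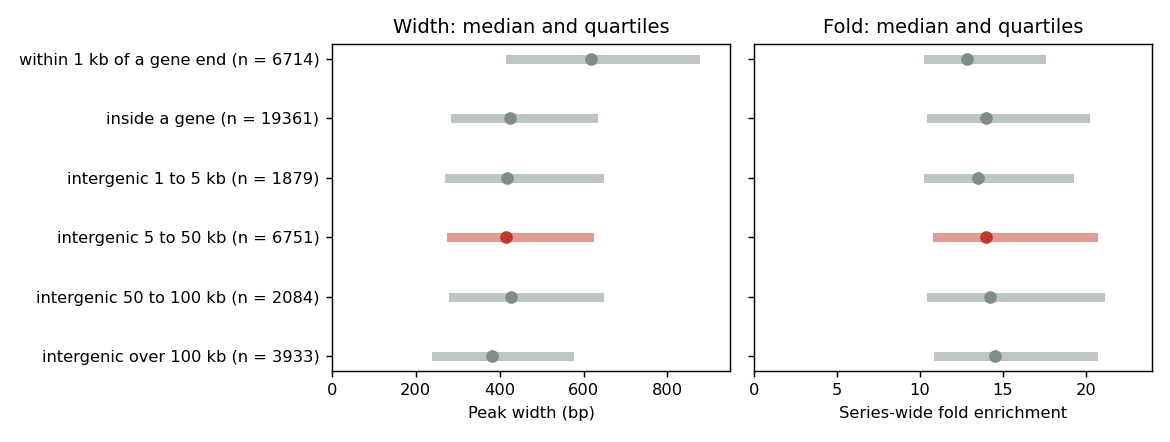
Median (point) and quartiles (bar) of peak width in bp (left) and of series-wide fold enrichment (right) for peaks grouped by position relative to protein-coding genes. The peaks 5 to 50 kb from genes (red) had a median width of 415 bp and a median fold of 14.0, where peaks within 1 kb of a gene end had 618 bp and 12.9.

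The median series-wide fold was 14.0 (quartiles 11.0 and 20.4) for the peaks 5 to 50 kb from genes, 12.9 at gene ends, 14.0 inside genes, 13.5 at 1 to 5 kb, 14.2 at 50 to 100 kb and 14.5 beyond 100 kb. Over supported peaks the median was 12.5 in replicate 1 and 12.9 in replicate 2, or 12.7 ± 0.25 (SD, n = 2), beside 11.7 ± 0.331 at gene ends. Between these classes the medians were 12.5 against 11.5 in replicate 1 and 12.9 against 12.0 in replicate 2. Over supported peaks this difference had the same direction in each sample and was larger than the spread between the samples. The order was reversed in each replicate's own, less strict list, where the median fold was higher at gene ends. A fold of 30 or more was reached by 651 of the peaks (9.64%), by 9.34% inside genes, by 10.03% at 50 to 100 kb, by 5.85% at gene ends and by 8.77% of all. The values come from the 2 pull-down samples alone, and no test over samples was run.

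Both replicate lists had a peak at 6597 of the 6751 positions, or 97.7% (95% Clopper-Pearson interval 97.3 to 98.1%), beside 98.0% of all 40722 peaks. That share is near the background, and the series-wide list is, by its name, a set of reproduced peaks. No position had a peak in only 1 replicate. Of the 154 found in neither, 138 lay on chromosomes 13 to 19 beyond the last peak of the replicate lists, which stop early there, with 54 on chromosome 16, 25 on chromosome 14 and 24 on chromosome 17. Within the span that the replicate lists cover, 99.8% had a peak in both.

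The other 16 positions without a replicate peak included strong and wide ones. The strongest peak of the whole set, 78.5-fold and 4742 bp wide at chr1:24611488-24616229, was among them. It lay 25.9 kb upstream of Col19a1, a minor collagen gene, over the pseudogenes Gm10222 and Gm10925. A peak of 65.0-fold lay 29.4 kb downstream of Rpusd4, and one of 55.0-fold 21.9 kb downstream of Ly6c2. These 3 peaks have no replicate fold here and enter no mean below. They were singled out after their values were seen.

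Among the 6597 supported peaks the folds ran from 7.0 to 77.5 in replicate 1 and from 7.09 to 75.8 in replicate 2. In 5876 of them (89.1%) the replicates lay within 1.5 times of each other. Replicate 2 was higher at 3746 and replicate 1 at 2851, and the median ratio of replicate 2 to replicate 1 was 1.04. The folds were not scaled between the samples.

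**Figure D2:**
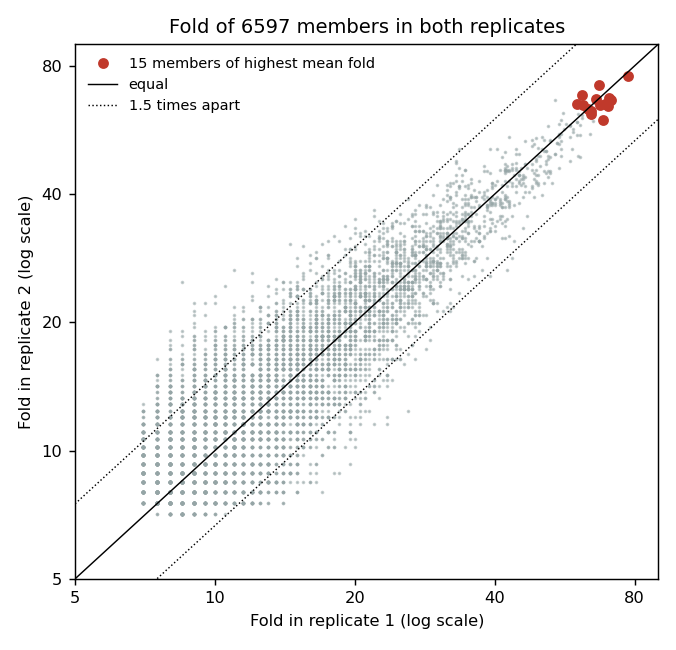
Fold enrichment of each of the 6597 supported intergenic 5 to 50 kb peaks in replicate 1 (x axis, log scale) and replicate 2 (y axis, log scale), with the 15 of highest mean fold in red. Of all points, 5876 lie between the dotted lines, which mark a ratio of 1.5, and all 15 red points do.

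The rule was also applied to each replicate's own, less strict list. It took 12684 of 77090 peaks in replicate 1 (16.5%) and 14896 of 87058 in replicate 2 (17.1%). A partner in the other replicate was present for 81.8% of these in replicate 1, beside 81.3% of all its peaks, and for 69.6% in replicate 2, beside 72.2% of all. Support was more frequent among stronger peaks. Below 7.5-fold 61.5% had a partner in replicate 1 and 42.4% in replicate 2, while at 15-fold or more 2452 of 2455 and 2679 of 2682 had one.

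The sequence that meets the rule, outside genes and 5 to 50 kb from the nearest one, measured 445 Mb. Density is given as peaks per Mb of it. The series-wide list held 15.2 peaks per Mb, falling from 16.2 at 5 to 10 kb to 13.9 at 40 to 45 kb and standing at 14.8 in the last 5 kb. In replicate 1 the density was 30.6 per Mb at 5 to 10 kb and 24.9 at 45 to 50 kb, and in replicate 2 it was 35.0 and 30.9. The decline had the same direction in each sample and was close in size to the offset between the samples, which over all distances had 28.5 and 33.5 per Mb (31.0 ± 3.52, SD, n = 2). Upstream and downstream sides differed by less than the replicates did, with 15.2 and 14.9 per Mb in the series-wide list, for the 2894 and 2344 peaks near genes of known strand. Between chromosomes density ranged from 9.41 per Mb on chromosome 7 to 20.0 on chromosome 11.

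**Figure D3:**
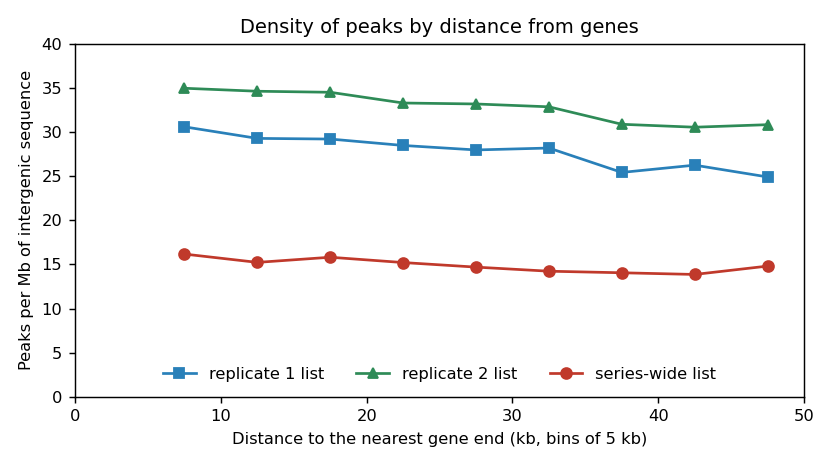
Peaks per Mb of intergenic sequence (y axis) in bins of 5 kb of distance to the nearest gene end (x axis), for the list of each replicate and the series-wide list. Each line ends lower than it starts, going from 30.6 to 24.9 in replicate 1, from 35.0 to 30.9 in replicate 2 and from 16.2 to 14.8 in the series-wide list.

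The 3 peaks closest to each limit on either side are given as a description. Just inside 5 kb lay peaks near Wfdc1, Lca5 and Bri3bp (15.0-fold in replicate 1 and 12.0-fold in replicate 2), and just below 50 kb lay peaks near Gata5, Mrtfb and Mn1, the last with folds of 34.5 and 45.7. Just below 5 kb were peaks near Tmtc2 (13.5-fold and 21.3-fold), Arhgap12 and Mfhas1, and just past 50 kb peaks near Slc38a2 (38.0-fold and 41.7-fold), Herpud2 and Arsb. Gata5 is a cardiac GATA factor, Mrtfb a coactivator of serum response factor, and Slc38a2 the amino acid transporter SNAT2.

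The 6751 peaks had 3759 nearest genes, which is 18.2% of the 20665 protein-coding genes on these chromosomes. Since 14956 genes have any sequence 5 to 50 kb away that is closest to them, the share is 25.1% of the genes that could be named. Of the 3759, 2246 were nearest to 1 peak, 1322 to between 2 and 4, and 191 to at least 5. Those 191 genes held 1155 peaks (17.1%). For 2476 peaks (36.7%) a second gene lay no more than 2 times as far away as the nearest. The nearest gene is a label of position here and was not shown to be regulated.

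A peak within 1 kb of a gene end was present at 1549 of the 3759 genes (41.2%, 95% Clopper-Pearson interval 39.6 to 42.8%), beside 34.6% of all protein-coding genes. Of the 11197 genes that had sequence in the distance range but no peak there, 3027 (27.0%) had one at a gene end. The share was 36.5% for genes nearest to 1 intergenic peak and 58.1% for genes nearest to at least 5. Where a gene had both, the strongest intergenic peak exceeded the one at the gene end in 987 of 1549 (63.7%), with median folds of 17.3 and 13.5. The intergenic value is the highest of several peaks at many genes, which raises it. At 1229 of the 3759 genes (32.7%) the series-wide list had peaks 5 to 50 kb away and none inside the gene or at its ends. The share of all protein-coding genes with no peak inside or at an end is not given here, so 32.7% cannot be called high or low.

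The strongest peaks with replicate support lay near genes of varied function. A peak at chr10:40327746-40328595, 21.1 kb from Cdk19, a kinase of the Mediator complex, had folds of 77.5 in replicate 1 and 75.8 in replicate 2, or 76.7 ± 1.21 (SD, n = 2). Near Iyd, which recycles iodide from iodotyrosines, they were 67.0 and 72.3, and near the predicted gene Gm50595 70.5 and 67.4. Near Akap13, a protein that anchors protein kinase A, they were 71.0 and 66.5.

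Heart and lipid genes were among these 15 neighbours. Lpl encodes lipoprotein lipase, which frees fatty acids for uptake by heart muscle. Its strongest peak, at chr8:68953833-68954486 and 47.2 kb from the gene, had folds of 69.0 and 65.2, and a peak 14.2 kb from it had 51.5 and 47.9. Ryr2 is the calcium release channel of the sarcoplasmic reticulum. The peak at chr13:12131950-12134615, 26.3 kb upstream of it and 2666 bp wide, had folds of 68.5 and 59.8. The other 9 of the 15, with mean folds from 62.6 to 67.1, were nearest to Lclat1 (a cardiolipin-remodelling acyltransferase), Tle3 (a corepressor), Usp3 (a histone deubiquitinase), Ppp1r3c (which targets protein phosphatase 1 to glycogen), Ahcyl1, Mrgprd, Olfml2b, Gdnf (a neurotrophic factor) and Smc3 (a cohesin subunit). In all 15 both replicates were at or above 59.8-fold.

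The peaks were next counted over gene lists for stress and heart functions, with the density of their 5 to 50 kb sequence, since genes in gene-poor regions offer more of it. All 124 stress genes together had 38 that were nearest to a peak (30.6%), and all 111 heart genes had 54 (48.6%), beside 18.2% of all genes. Density was 31.2 per Mb around the stress genes and 37.5 around the heart genes, beside 15.2 over all. In replicate 1 it was 54.4 and 63.2, beside 28.5 over all, and in replicate 2 it was 60.1 and 67.8, beside 33.5. The replicate lists alone gave 50 and 52 stress genes and 64 and 69 heart genes, beside 26.3% of all genes in replicate 1 and 28.7% in replicate 2. Both groups thus stood above all genes in each sample, and the pooled heart genes above the pooled stress genes. Single stress lists differed in density. The integrated stress response list (66.6 and 77.2 per Mb in the replicates) and the protein folding list (98.1 and 72.7) stood above the heart genes in each sample. The amino acid, tRNA synthetase and oxidative stress lists stood below them. In the series-wide list 10 of the 15 peaks of the protein folding list were those of Pdia4. The part of Pdia4 in the replicate lists is not given here.

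**Figure D4:**
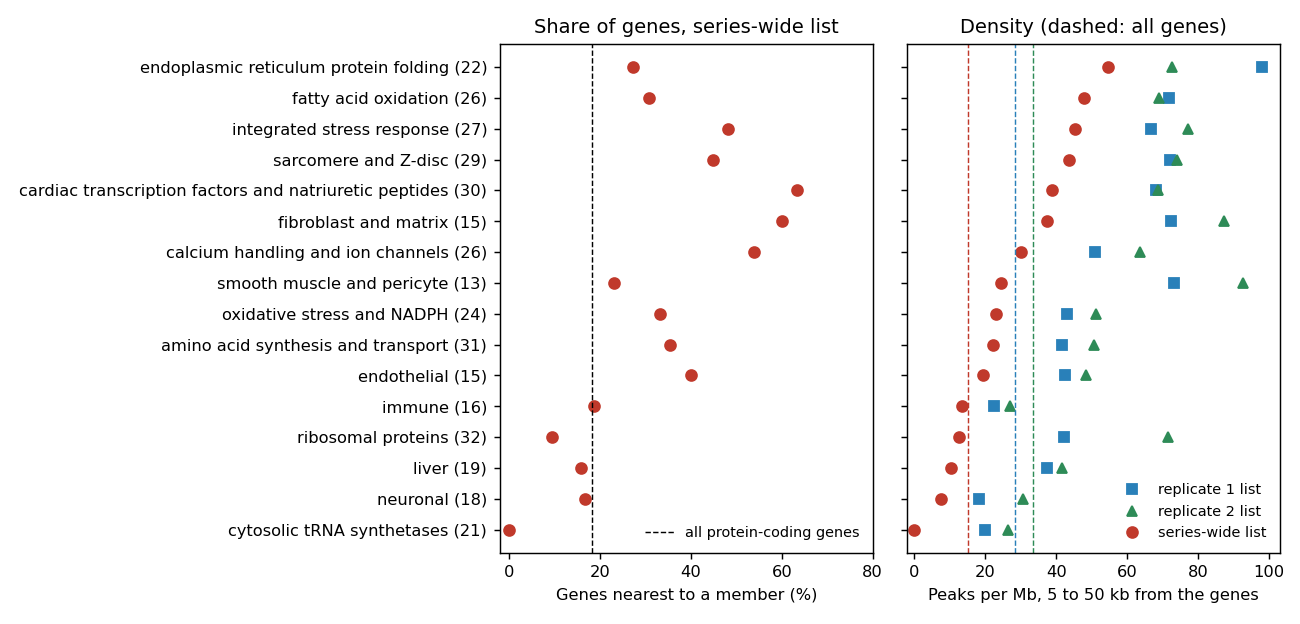
For 16 gene lists (number of genes in brackets), the percent of genes nearest to an intergenic 5 to 50 kb peak in the series-wide list (left) and the peaks per Mb in the list of each replicate and the series-wide list (right), with dashed lines for all protein-coding genes. The share was 63.3% for cardiac transcription factors and 0% for cytosolic tRNA synthetases, beside 18.2% of all genes.

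Of 27 genes of the integrated stress response, 13 were nearest to at least 1 peak (said below to have a peak), with 30 peaks in all. Density around them was 45.4 per Mb in the series-wide list and 66.6 and 77.2 in the replicates. Ddit4, an inhibitor of mTORC1, had a peak 13.6 kb upstream at chr10:59964993-59965716 with folds of 47.0 and 46.1, or 46.6 ± 0.639 (SD, n = 2), and one of 25 and 24.4 on its other side. Nfil3, a leucine zipper repressor, had one 25.7 kb upstream with folds of 42.5 and 35.0. Vldlr, the very low density lipoprotein receptor, was nearest to 6 peaks on both sides, the strongest with 37.5 and 39.4. All 3 genes also had a peak at a gene end, with folds of 26.5, 20.4 and 22.0.

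Trib3, a pseudokinase that restrains ATF4 and CHOP, had a peak 5.96 kb upstream with folds of 27.0 and 22.6, below the peak at its own end. The cell cycle inhibitor Cdkn1a had one 11.9 kb upstream with 34.5 and 33.2 and was the only one of the 13 with none at a gene end. Trp53inp1, an autophagy factor, had 26.0 and 23.9. Eif2ak3, which encodes the eIF2 alpha kinase PERK, had 3 peaks 19.8 to 22.7 kb upstream, the strongest with 25.5 and 21.3. In these 4 genes the replicates differed by less than 1.5 times.

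The secreted glycoprotein gene Stc2 and the transcription factor gene Cebpb, a partner of ATF4, had 4 peaks each, the strongest with folds of 18.5 and 25.7 and of 20.5 and 16.4. Weaker peaks lay near Atf3 (11.0 and 13.7), a leucine zipper repressor of the stress response, and near Herpud1 (11.5 and 11.1), a factor of protein degradation at the endoplasmic reticulum. Eif4ebp1, an inhibitor of cap-dependent translation, had 8.50 and 12.9, and the AP-1 repressor gene Jdp2 had 7.0 and 8.42. The 4 were stronger at the gene end, where the series-wide folds were 44.0 for Atf3, 48.0 for Herpud1, 34.0 for Eif4ebp1 and 19.5 for Jdp2.

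Among 31 genes of amino acid synthesis and transport, 11 were nearest to a peak, with 22.3 peaks per Mb. The strongest were those of 3 system A amino acid transporters on chromosome 15 and of glutamine synthetase. Slc38a2 had folds of 31.5 and 39.9 at 44.4 kb upstream, Slc38a1 36.5 and 32.8, and Slc38a4 32.5 and 31.9. Glul, glutamine synthetase, had 29.0 and 27.9. The asparagine synthetase gene Asns, a classical ATF4 target, had its strong peak at the gene end (37.0-fold), while its intergenic peak 40.1 kb upstream had 8.50 and 12.4; it was singled out after its values were seen.

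None of 21 cytosolic tRNA synthetase genes was nearest to a peak. Only 12 of them have any sequence in the distance range, 151 kb in all, and at 15.2 per Mb so short a stretch holds few peaks of any kind. The list of replicate 1 gave 2 of these genes and that of replicate 2 gave 3. Of 22 genes of protein folding in the endoplasmic reticulum, 6 had a peak, with 54.5 peaks per Mb, and 10 of their 15 peaks were those of Pdia4, a disulfide isomerase. The best of these had 46.0 and 44.3. The stress sensor gene Atf6 had 13.5 and 19.9, Creld2 16.0 and 13.7, and the cochaperone gene Dnajb9 11.5 in each replicate. Each of these 3 also had a peak at a gene end. Of 24 genes of oxidative stress and NADPH, 8 had a peak, with 23.2 per Mb. The best peaks were those of the mitochondrial isocitrate dehydrogenase gene Idh2 (33.0 and 34.6), the superoxide dismutase gene Sod1 (36.0 and 27.9), the antioxidant regulator Nfe2l2 (21.0 and 20.8) and Gclc, which starts glutathione synthesis (18 and 16.4).

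Among cardiac genes, 19 of 30 genes for transcription factors and natriuretic peptides were nearest to a peak, with 62 peaks and 38.7 per Mb in the series-wide list and 68.0 and 68.6 in the replicates. Tead1, a factor of the Hippo pathway, had 5 peaks, including one at chr7:112656009-112657117 with folds of 65.0 and 59.4 and a neighbour with 55.5 and 49.2. Myocd encodes myocardin, a coactivator of serum response factor, and had 61.0 and 55.0 at 34.0 kb. Nkx2-5, the cardiac homeobox gene, had 7 peaks between 5.7 and 35.0 kb upstream. The one at chr17:26868644-26869293 had folds of 56.5 and 56.7, or 56.6 ± 0.166 (SD, n = 2), while the other 6 had 8.50 to 25 in replicate 1 and 7.54 to 30.1 in replicate 2. Mef2a, a factor of muscle differentiation, had 42.0 and 45.2. Its end peak was stronger, at 57.2-fold, whereas those of Tead1 (13.7), Myocd (23.0) and Nkx2-5 (9.75) were weaker than the intergenic peak.

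Of 26 genes for calcium handling and ion channels, 14 had a peak, with 30.2 peaks per Mb. Ryr2 had 6 peaks, all between 8.09 and 26.3 kb upstream. Atp2a2, the calcium pump of the sarcoplasmic reticulum, had 4 within 18.3 kb, the strongest with folds of 60.0 and 55.0 at chr5:122519452-122521534. Adrb1, the beta-1 adrenergic receptor gene, had 9, the strongest with 41.5 and 37.2 and the others at or below 26.5 and 28.8. Slc8a1, the sodium-calcium exchanger, had 35.5 and 30.1. The end peaks were weaker than the strongest intergenic peak at Ryr2 (9.75-fold), Atp2a2 (8.87-fold) and Adrb1 (25.5-fold), and stronger at Slc8a1 (43.0-fold).

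**Figure D5:**
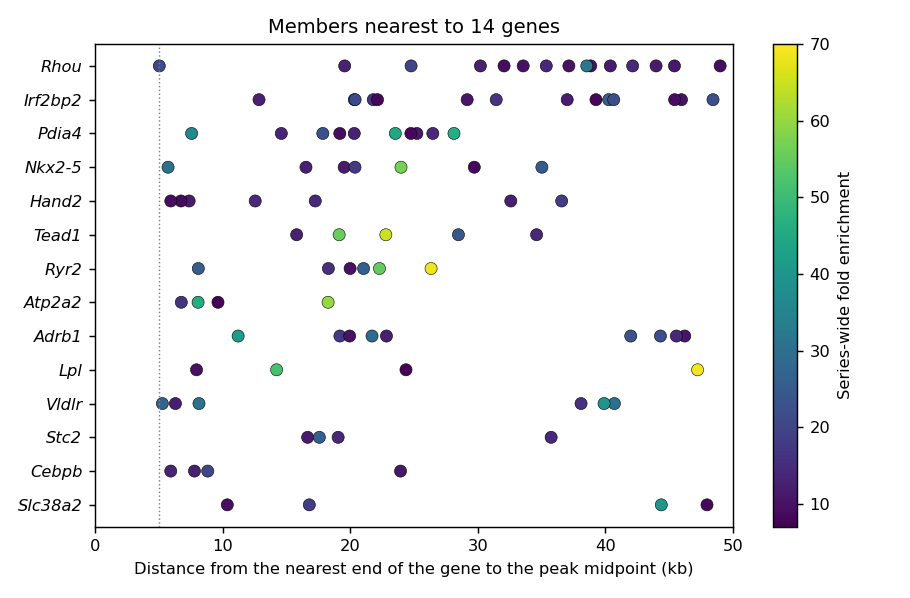
Distance in kb from the nearest end of the gene to the midpoint of each intergenic 5 to 50 kb peak (x axis) for 14 genes (rows), coloured by series-wide fold enrichment; the dotted line marks the 5 kb limit. Strong peaks stand alone or in pairs within rows of weaker ones, as near Nkx2-5, Ryr2 and Tead1, whereas the 15 peaks of Rhou and the 14 of Irf2bp2 are all at or below 31.9-fold.

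Of 29 genes of the sarcomere and Z-disc, 13 had a peak, with 43.6 peaks per Mb. The slow myosin heavy chain gene Myh7 had 1 peak, 4109 bp wide and 9.53 kb upstream at chr14:55002098-55006206, with folds of 52.0 and 45.2, over the noncoding gene Gm31251. Cardiac actin, Actc1, had 3 peaks, the strongest with 35.0 and 32.4. Csrp3, a Z-disc protein gene, had 37.5 and 26.6, and the stretch-responsive gene Ankrd1 25 and 22.6. Of 26 genes of fatty acid use, 8 had a peak, with 47.8 per Mb, and each of the 8 also had an end peak. Beside Lpl, the fatty acid binding protein gene Fabp3 had 38.0 and 35.5, the lipase inhibitor gene Angptl4 31.0 and 34.6, and Pdk4, which shuts pyruvate out of oxidation, 25.5 and 25.7.

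Lists for other cell types of the ventricle and for other organs serve as a check of the tissue label, as far as peaks near genes can, and give the range against which these counts stand. Of 15 fibroblast and matrix genes 9 had a peak (37.4 per Mb), including Fn1 (30.5 and 33.2), Postn (22.0 and 35.5), Col3a1 (19.5 and 31.5) and Dpt (23.0 and 25.3). Of 15 endothelial genes 6 had a peak (19.3 per Mb), with Pecam1 at 36.0 and 25.7, Egfl7 at 19.5 and 19.9, Tek at 18 and 17.3 and Emcn at 11.0 and 17.3. The density around fibroblast genes was 72.4 and 87.4 per Mb in the replicates, beside 63.2 and 67.8 around the heart genes, a difference that was not tested. The cell type in which each region was captured was not tested.

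Of 13 smooth muscle and pericyte genes 3 had a peak (24.4 per Mb), Smtn, Abcc9 and Des, at 15.0-fold or less in replicate 1. In the replicate lists this list had 6 and 7 such genes and 73.2 and 92.7 per Mb, above the density around the heart genes in each sample. Of 16 immune genes 3 had a peak (13.5 per Mb), Itgam, Cd3e and Ptprc. The same number was found among 18 neuronal genes (7.64 per Mb), Gria1, Snap25 and Gad1, and among 19 liver genes (10.4 per Mb), Fgg and Ttr among them. The liver gene Fgg had 42.5 and 26.6 at 47.3 kb. Of 32 ribosomal protein genes 3 had a peak (12.6 per Mb), Rplp1, Rpl14 and Rps14. The immune and neuronal lists lay below the density of all genes in both replicates. The liver list lay above it, with 37.4 and 41.5 per Mb, and so did the ribosomal list, with 42.1 and 71.6, although both were below it in the series-wide list.

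The genes with the most peaks were not those with the strongest. Rhou, which encodes an atypical small GTPase, was nearest to 15 peaks from 5.04 to 49.0 kb away, the strongest with folds of 31.0 and 31.9, and the median series-wide fold was 11.5. Irf2bp2, a transcriptional corepressor, had 14, and the strongest had 25.5 and 25.3. Gas8, a gene of the ciliary dynein regulatory complex, had 12 with none above 14.0-fold. Adtrp, Lrrc74a and Pdia4 had 10 each, the strongest with 52.5 and 53.6, 44.0 and 37.7, and 46.0 and 44.3. Gas8 and Rhou lie 117 kb apart on chromosome 8, with annotated 5S rRNA genes between them. All 12 peaks of Gas8 and 10 of the 15 of Rhou overlapped rRNA gene models, and these are all 22 peaks of the set that did. Such near-identical copies share reads, so how the reads were placed among them is uncertain. The other 5 peaks of Rhou overlapped no rRNA gene model, and a peak over the pseudogene Gm23647 was among them.

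The widest peaks lay over noncoding genes. A peak of 13093 bp at chr6:47741367-47754459 covered Gm52861, with folds of 58.0 and 57.6, and the next on that side, 7079 bp wide over Gm52862, had 34.5 and 41.7. Both had the predicted gene Gm40363 as nearest and Pdia4 as second nearest gene, 48.2 and 37.7 kb away. A peak of 10291 bp over Neat1, the RNA scaffold of paraspeckles, had 23.5 and 25.3 and lay nearest to Frmd8. Peaks over Malat1 (5410 bp, 14.5 and 20.4), another abundant nuclear RNA, and over the imprinted gene H19 (2548 bp, 21.0 and 31.9) were singled out after their values were seen.

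Noncoding gene models lay under many of these regions. Of the 6751, 1625 (24.1%) overlapped at least 1 noncoding model of the RefSeq table, beside 18.9% of the peaks 1 to 5 kb from genes, 26.9% of those at 50 to 100 kb and 21.8% of those beyond 100 kb. The share was 13.8% at gene ends, 7.29% inside genes and 14.1% of all, so it was higher in each intergenic class than in these. Long noncoding RNA genes were under 1400 (20.7%), pseudogenes under 78, tRNA genes under 59 and rRNA genes under 22. How much noncoding annotation each class of sequence offers was not tested.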

How the data were processed

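Chromatin from heart ventricle of 2 pull-down samples was analysed, and 2 input samples were not analysed here. Per the submitters' processing notes, the tools were Bowtie2, MACS2 and deepTools and the build mm10, with no role or version given. The series-wide list gives a deposited fold (ratio) per peak, and each replicate list gives the authors' −log10 p-value or q-value, which of the pair is not stated. Both files also hold the deposited summit position. Peaks were called per sample, judging by the deposited lists. Cutoffs are not given in the sources used here.

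Peaks identical in a replicate list and the series-wide list (17420 and 21053, of which 0 and 6 disagreed) tied each −log10 value to a fold, and replicate folds were read from that relation. Folds of 4 and 5 lower levels continued its steps, and 2 and 9 levels were interpolated. The steps were 0.500 and 0.443, and folds were not scaled between samples. Depth per sample is unknown, so no counting interval of a fold is given, and Clopper-Pearson intervals of shares cover counting error only.

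Protein-coding gene spans came from RefSeq (GRCm38.p6, to which mm10 corresponds), without exons. Strand was known for 79.6% from start windows. Of 366 distinct list entries 362 matched, 2 by an older symbol. Overlap meant at least 1 bp. Results are descriptions, with no test. The script was checked on simulated peaks. The regions, the 16 lists and the alternatives were chosen with earlier results of these data known.

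Named were the neighbours of the 15 peaks of highest mean replicate fold, up to 4 genes per list by strongest peak, every stress response gene nearest to a peak, the 6 genes with most peaks, the neighbours of the 3 widest, and 3 at each distance limit. Python 3.11.15, pandas 2.3.3 and SciPy 1.17.1 were used.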

Additional observations from a re-analysis of the deposited data

How the results depend on the processing

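In the series-wide list 45.9% of the peaks were nearest to a gene with a peak at its end. This end-peak share counts peaks, unlike the share of genes given above. Applied to 1 replicate list at a time, the rule took 12684 to 14896 peaks, with a median width of 281 to 288 bp. Their median fold was 7.98 to 8.50 and their end-peak share 59.9 to 63.6%. These lists hold more and weaker peaks, and the cause of the changes in width and end-peak share was not tested. Limiting the distance to under 25 kb left 4369 peaks. The 50% of series-wide peaks with the highest fold left 3582, with a median width of 505 bp, a median fold of 19.5 and 23.2% near a gene with an end peak. The higher fold follows from the choice. The same cut removed the weaker peaks at gene ends, so the 23.2% was counted over fewer end peaks. Any further cause of that change, and the cause of the change in width, was not tested. Measuring distance to every gene model, noncoding ones included, gave a median width of 400 bp, 27.1% near a gene with an end peak, 12 stress genes and 25 heart genes, since many nearest genes became noncoding. Without predicted gene names the end-peak share was 47.7%, and with a window of 5 kb at gene ends it was 63.6%. Support in both replicates was 99.8% within the span of the replicate lists and 93.7% when at least 50% of the peak had to be covered. Assigning each peak to every gene with an end under 50 kb gave 55 stress and 72 heart genes, beside 31.2% of all genes. Stress and heart counts stayed within 1.5 times of the reported ones in 9 of 10 alternatives each. These are raw counts, and the share of all genes nearest to a peak moved too. It was 18.2% in the series-wide list and 26.3% and 28.7% in the replicate lists. For the remaining alternatives that share is not given here, so the counts alone do not show a steady excess over all genes. No paired analysis was possible because the values used come from the pull-down samples alone, which leaves 1 group. Depth is unknown, the replicates may be technical, and no input or untreated pull-down was compared, so enrichment specific to ATF4 was not tested.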
